A study of Mus musculus with 11 samples.

Results

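Immediate early genes and heat shock genes are the transcripts of a tissue that change first when cells are disturbed, and 31 of them were read out in mouse back skin: 19 immediate early genes (Fos, Fosb, Jun, Junb, Jund, Egr1, Egr2, Egr3, Atf3, Ier2, Ier3, Dusp1, Nr4a1, Zfp36, Btg2, Klf2, Klf4, Klf6 and Myc) and 12 heat shock genes (Hspa1a, Hspa1b, Hspa8, Hsph1, Dnajb1, Dnaja1, Hsp90aa1, Hspb1, Hspd1, Hspe1, Bag3 and Cryab). They were picked by gene symbol, and all 31 were found among the 24411 genes of the files. All 31 also passed the filter on low counts, which left 14588 genes. The skin came as 11 samples from hosts of the EGFP transgenic strain Tg(act-EGFP)Y01Osb, whose EGFP is driven by an actin promoter. The hosts received 10 Gy of radiation and then femoral marrow cells, sorted from Pdgfra-Cre;tdTomato donors, through the tail vein. The cells were tdTomato-negative for 7 samples (the negative group) and tdTomato-positive for 4 samples (the positive group). After 6 weeks of recovery the skin was treated 6 times with MC903, a vitamin D analog that produces a dermatitis in mouse skin, and it was taken on day 14. The age label reads 16 to 18 for all samples with no unit. Irradiation, transplantation and MC903 were thus common to both groups, and no untreated skin entered any comparison. The labels do not say that each sample is a separate animal, so p-values measure only the spread between these samples.

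Immediate early genes are transcribed within minutes of a stimulus by factors that already wait in the cell, with no need for new protein. They encode mainly transcription factors (the Fos, Jun, Egr, Klf and Nr4a families) and feedback inhibitors that end the response (Dusp1, Zfp36). Heat shock genes encode chaperones that keep proteins folded, and heat shock factor drives the inducible ones through short repeated elements in their promoters. Both sets are known to respond to the handling of tissue, and several members are also expressed in growing hair follicles or in muscle.

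Library totals ran from 7190752 to 9749842 expected counts, with 7835300 ± 557167 (SD, n = 7) in the negative group and 8163570 ± 1104130 (SD, n = 4) in the positive group. All 20 epidermal keratinocyte markers passed the filter, and their summed level was 23286 to 47604 CPM (counts scaled to a common library size, with TMM factors) in the negative group and 31732 to 46075 in the positive group. The summed level of 35 hair shaft and inner root sheath markers differed far more between samples. It was 3185, 29865, 55330, 30285, 36276, 41511 and 504 CPM in negative samples 1 to 7, and 3532, 671, 1145 and 16791 CPM in positive samples 1 to 4. Negative samples 1 and 7 and positive samples 1 to 3 were therefore low in hair transcripts. The summed level of 24 skeletal muscle markers ran from 6429 CPM in negative 2 to 22991 CPM in negative 7. In bulk tissue, fewer cells of a type and less RNA per cell cannot be told apart.

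Promoters are shown for members whose short elements bear on the grouping of the genes. RefSeq promoters of build GRCm38.p6, from 250 bases before to 50 after the start, were matched for 24 of the 31 members, 15 immediate early and 9 heat shock. The cyclic AMP response element TGACGTCA, searched on both strands, was in 2.03% of 27025 gene promoters and in those of Dusp1 and Btg2, which are printed with the element in capitals. A heat shock element of 3 units (GAA and TTC in alternation, with NN between neighbours, starting with either) was in 0.662% of promoters, and 3 of the 9 heat shock members (Hsph1, Hspd1 and Hspe1) and 0 of the 15 immediate early members held it. The shorter element of 2 such units, which the longer one contains and which was added after the first search, was in 17% of promoters, in 8 of the 9 heat shock members and in 2 of the 15 immediate early members (Jun and Egr2). It is in capitals in Hspa1a and Hspa1b, while the capitals in the Hspe1 site mark 2 overlapping matches of the element of 3 units. All stretches lie upstream of the gene's start and read 5′ to 3′ on its strand, and the Hspe1 site lies within the first exon of a transcript of its neighbour Hspd1.
Dusp1, chr17:26508520-26508722, minus strand: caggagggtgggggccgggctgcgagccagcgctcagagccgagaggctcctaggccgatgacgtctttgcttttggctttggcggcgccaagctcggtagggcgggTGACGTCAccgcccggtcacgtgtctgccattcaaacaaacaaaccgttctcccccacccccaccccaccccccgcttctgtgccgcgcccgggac
Btg2, chr1:134079156-134079405, minus strand: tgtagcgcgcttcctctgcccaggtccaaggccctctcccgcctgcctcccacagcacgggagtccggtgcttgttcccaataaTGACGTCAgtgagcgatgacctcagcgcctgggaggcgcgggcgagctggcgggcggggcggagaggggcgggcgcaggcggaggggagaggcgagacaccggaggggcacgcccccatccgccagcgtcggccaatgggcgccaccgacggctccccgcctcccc
Hspa1a, chr17:34972157-34972406, minus strand: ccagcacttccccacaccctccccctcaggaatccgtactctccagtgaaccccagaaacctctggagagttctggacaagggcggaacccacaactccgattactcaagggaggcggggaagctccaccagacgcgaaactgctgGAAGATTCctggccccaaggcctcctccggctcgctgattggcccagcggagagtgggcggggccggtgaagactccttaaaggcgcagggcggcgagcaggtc
Hspa1b, chr17:34959239-34959488, minus strand: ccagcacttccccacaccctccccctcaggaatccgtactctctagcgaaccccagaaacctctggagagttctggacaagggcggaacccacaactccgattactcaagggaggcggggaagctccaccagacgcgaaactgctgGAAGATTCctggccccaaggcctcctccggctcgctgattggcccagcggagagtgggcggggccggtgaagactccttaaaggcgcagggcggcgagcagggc
Hspe1, chr1:55088053-55088082, plus strand: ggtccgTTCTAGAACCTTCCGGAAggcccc
The 250 bases upstream of Hspa1a and Hspa1b differed at 3 positions. Their transcripts are near copies as well: 58.8% of the 50-base windows of the Hspa1a transcript also occur in Hspa1b, and 62.3% of those of Hspa1b occur in Hspa1a. How reads were divided between this pair is therefore uncertain. The AP-1 element TGANTCA, the binding letters of Fos and Jun dimers, was in 8.97% of promoters and among the 24 matched members in Bag3 alone. The CArG box of serum response factor was in 1.81% of promoters and in those of Egr2 and Zfp36.

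The members covered a wide range of levels per transcript length. Hspa8, the constitutive Hsp70 chaperone, was the highest with 1129 ± 123 TPM (SD, n = 7) in the negative group and 971 ± 46.2 TPM (SD, n = 4) in the positive group. Hspb1, a small heat shock protein abundant in keratinocytes, came next in the negative group with 424 ± 97.3 TPM (SD, n = 7), and it had 291 ± 29.1 TPM (SD, n = 4) in the positive group. Cryab, the small heat shock protein of lens and muscle, was at 201 ± 77.6 TPM (SD, n = 7) and 245 ± 50.4 TPM (SD, n = 4). Hspa1b stood at 152 ± 30.3 and 126 ± 23.9 TPM in the same order, and Hspa1a at 60.9 ± 7.14 and 44.5 ± 9.16 TPM (SD, n = 7 and 4).
Among immediate early genes, Klf4, a transcription factor of the differentiating epidermis, was the highest, with 151 ± 27.5 TPM (SD, n = 7) in the negative and 175 ± 21.5 TPM (SD, n = 4) in the positive group. Junb, at 138 ± 22.3 and 118 ± 40.0 TPM, and Egr1, at 107 ± 43.4 and 75.9 ± 21.5 TPM, followed in the negative group. Fosb, Atf3, Klf2 and Nr4a1 had the lowest levels, and Fosb was at 7.21 ± 8.16 TPM (SD, n = 7) in the negative group. The SDs of neighbours in this order overlapped for most members, so the order is a description. Summed over members, the immediate early genes held 997 to 1529 TPM in negative and 926 to 1398 TPM in positive samples, and the heat shock genes 2281 to 2880 and 2210 to 2478 TPM.

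The immediate early genes differed among themselves in how much they varied. The coefficient of variation of CPM over the 11 samples was 116% for Fosb, 92.2% for Fos, 55.3% for Atf3, 45.7% for Nr4a1 and 42.5% for Egr1, against a median of 17.2% over all tested genes. At the other end, Klf2 had 11.4% and the mitochondrial chaperonin Hspd1 had 11.7%. Fos (chr12:85473890-85477274), the partner of Jun in AP-1, had 17.1, 47.1 and 191 CPM as lowest, median and highest value in the negative group and 73.8, 23.9, 20.5 and 25.5 CPM in positive samples 1 to 4. Negative 6 was the highest and negative 1 the lowest, and all positive samples lay within the negative range. Its close relative Fosb (chr7:19302696-19310118) had 2.57, 7.54 and 57.7 CPM as lowest, median and highest negative value and 16.9, 2.56, 7.50 and 7.16 CPM in the positive samples. Negative 6 was again the highest, the lowest was positive 2, and the groups overlapped. Atf3, a stress-induced repressor of the ATF family, had 3.77, 8.64 and 14.7 CPM in the negative group and 20.4, 3.45, 6.78 and 5.67 CPM in the positive samples. Here positive 1 was the highest and positive 2 the lowest of all 11.

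By TPM, positive 1 was the highest of all 11 samples for 7 of the 19 immediate early genes, negative 6 for 6, negative 7 for 3, negative 4 for 2 and negative 3 for 1. Negative 4 was above the median over all samples for 18 of the 19, negative 6 for 15, negative 2 for 14 and positive 1 for 11, and the other samples for 3 to 8. Of the 12 heat shock genes, negative 4 was above the median for all 12 and negative 5 for 10, against 1 for positive 2 and 2 for positive 4. Dusp1, the phosphatase that ends MAP kinase signals, had 124 CPM in positive 1, against 47.3 to 61.1 in the other positive samples and 42.8 to 99.2 in the negative group. The summed level of 12 neutrophil markers was also the highest in positive 1, at 752 CPM against 69.6 to 483 elsewhere. The same held for 17 macrophage and monocyte markers, at 3085 CPM against 1148 to 2387 elsewhere. Their part in the level of Dusp1 was not tested.

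**Figure D1:**
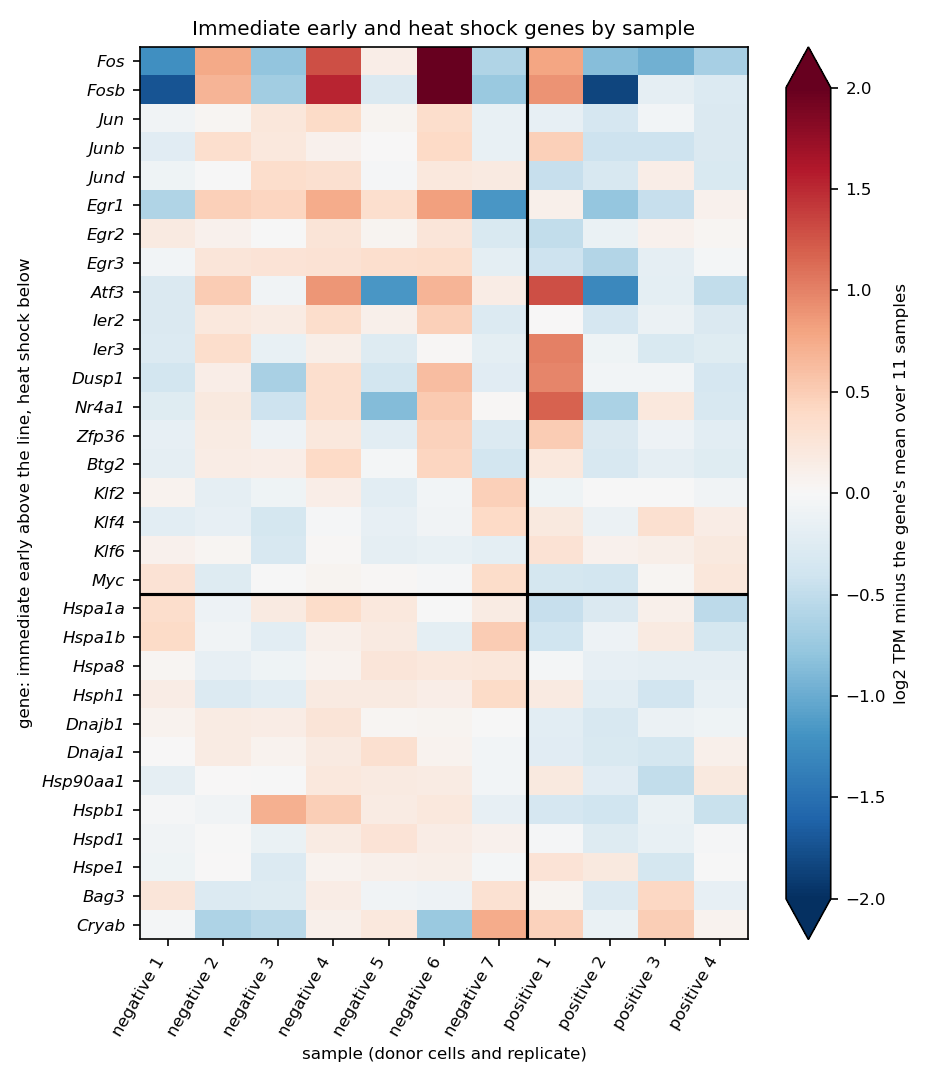
Level of each of the 31 members in each of the 11 samples, as log2 TPM minus that member's mean over the samples, with immediate early genes above heat shock genes; colours are clipped at the ends of the scale. The rows of Fos and Fosb hold the strongest shades, with negative 6 the highest (152 TPM for Fos).

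Which members moved with Fos within the groups was asked by a slope on log2 CPM of Fos, with the group as a covariate. Of 14587 other genes 1 passed (0.00686%, adjusted p under 0.05), and it was Fosb, which rose 1.16 ± 0.12 (SE) on the log2 scale for each doubling of Fos (edgeR's quasi-likelihood test, unadjusted p = 9.16e-07, adjusted p = 0.00668). Fos itself stayed in the adjustment, where its slope on its own level has a small p by construction. The adjusted p of Fosb is thus smaller than it would be over the 14587 other genes alone. Among the other 17 immediate early genes, Dusp1 had a slope of 0.41 ± 0.06 (SE, adjusted p = 0.192), Zfp36, which destabilises mRNAs of cytokines, 0.26 ± 0.05 (adjusted p = 0.491) and Atf3 0.50 ± 0.16 (adjusted p = 0.491), all short of the threshold by edgeR. By DESeq2, Dusp1 (adjusted p = 6.47e-05) and Zfp36 (adjusted p = 0.0143) passed too. Dusp1 also passed by edgeR with the hair marker sum as a further covariate (adjusted p = 0.0191). Slopes were above 0 for 16 of 18 immediate early genes and 8 of 12 heat shock genes and below 0 for 2 and 4, against 47.8% and 52.2% of all genes. At an unadjusted p under 0.05, which 9.93% of all genes had in either direction, 11 of 18 immediate early genes had a positive slope and 0 a negative one, where 4.06% of all genes had a positive and 5.88% a negative slope at that level. The median slope was 0.22 over the immediate early genes and 0.04 over the heat shock genes, and -0.0050 over all tested genes. Jund, Klf4, Egr2 and Klf2 were close to flat, with slopes of 0.0079, 0.02, 0.04 and -0.03. Of the heat shock genes, 3 had a positive slope at an unadjusted p under 0.05 (Hsp90aa1 with 0.14, Hspe1 with 0.12 and Hspd1 with 0.08) and 1 a negative one (Hspa1b with -0.13), and none of these passed after adjustment. Of the other lists no gene passed by edgeR, while DESeq2 called Cyr61 (adjusted p = 0.0194) and Herpud1 (adjusted p = 0.0175). The named genes had slopes of 0.31 for Cyr61 and 0.14 for Zfp36l1 (early response), 0.16 for Cacybp and 0.13 for Cct6a (chaperones), -0.16 for Herpud1 and -0.09 for Sel1l (unfolded protein response), and 0.11 for Cdkn1a and 0.16 for Mt2 (cell stress). The result for Fosb leaned on single samples: its adjusted p was 0.31 without negative 6 and 0.0573 without negative 1.

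**Figure D2:**
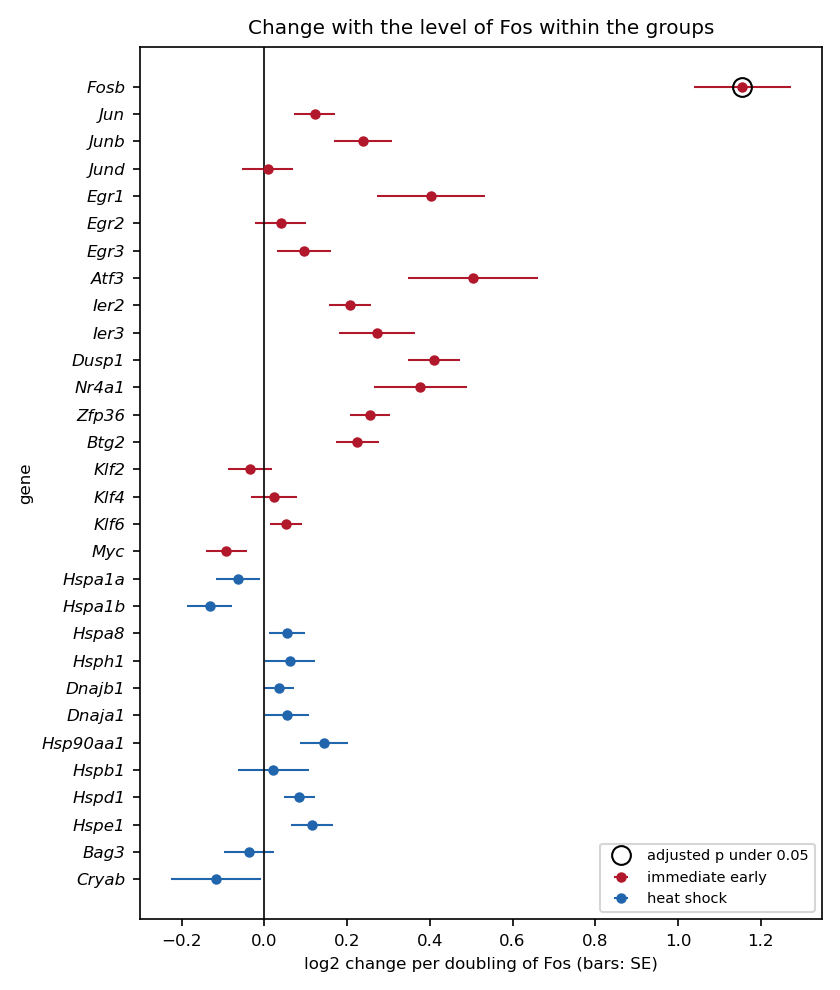
Slope of each member on log2 CPM of Fos within groups, in log2 units per doubling of Fos, with bars of 1 SE; immediate early genes are red, heat shock genes blue, and a ring marks an adjusted p under 0.05. Fosb is farthest to the right at 1.16, and most other immediate early genes lie between 0 and 0.50.

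Of the 12 marker lists, the hair list had the widest range of summed levels, and a slope on the log2 summed level of the hair markers was taken within groups. It was significant for 1729 of 14588 genes (11.9%), 1105 higher (7.57%) and 624 lower (4.28%). The 35 hair markers that make up the sum were among the genes tested. Of the 31 members 4 passed, 3 higher and 1 lower, which is close to the share of all genes. Of the other marker lists, some moved against the hair sum and some with it. In negative 1 and 7 and positive 1 to 3, the samples with the smallest hair sums, the summed keratinocyte markers were at 35800 to 47604 CPM, fibroblast markers at 17320 to 29645 and endothelial markers at 567 to 620. In the remaining 6 samples they were at 23286 to 33877, 11869 to 17295 and 347 to 469 CPM. Melanocyte markers went the other way, at 74.6 to 155.5 CPM in the samples with the smallest hair sums and 140 to 282 CPM in the remaining 6. Cell cycle markers were at 521 to 1185 and 1119 to 1433 CPM in the same order. The part of these lists in the slopes was not tested. The immediate early genes among the 4 were Egr1 and Egr3, zinc finger transcription factors of the early growth response family. Egr1 had 68.6, 232 and 299 CPM as lowest, median and highest negative value and 178, 97.1, 112 and 167 CPM in positive samples 1 to 4. The lowest were negative 7, positive 2 and negative 1, all poor in hair transcripts, but positive 1 was poor in them too and lay above positive 4. Egr1 rose 0.28 ± 0.03 (SE) on the log2 scale per doubling of the hair sum (edgeR's quasi-likelihood test, adjusted p = 0.00022). Egr3 (chr14:70077317-70082613) had 107, 157 and 172 CPM in the negative group and 99.1, 88.7, 108 and 121 CPM in the positive samples. Negative 7 and negative 1 were its lowest negative samples, and positive 4, the richest positive sample in hair transcripts, was its highest positive one. Its slope was 0.10 ± 0.02 (SE, adjusted p = 0.00128, edgeR).

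Of the heat shock genes, 2 passed, in opposite directions. Dnaja1 (chr4:40722468-40734965), an Hsp40 co-chaperone, had 147, 179 and 210 CPM in the negative group and 142, 135, 121 and 168 CPM in the positive samples, and rose 0.07 ± 0.02 (SE) per doubling of the hair sum (edgeR, adjusted p = 0.0187). Positive 4 was again the highest of its group and negative 7 the lowest of its own. Hspa1b (chr17:34956429-34959238), one of the inducible Hsp70 pair, had 213, 243 and 315 CPM in the negative group and 181, 224, 251 and 178 CPM in the positive samples. It fell by 0.08 ± 0.02 (SE) per doubling (edgeR, adjusted p = 0.0168): negative 7 and negative 1 were its highest and positive 4 its lowest sample. Its near copy Hspa1a (chr17:34969359-34972156) had a slope of -0.02 ± 0.03 (SE, adjusted p = 0.641), with reads that could be divided between them. The calls of Hspa1b and Dnaja1 were lost without negative 7 (adjusted p = 0.0586 and 0.0608), and that of Dnaja1 without positive 4 (0.0622). Dnaja1 also lost its call in the 7 negative samples alone (0.0711, edgeR) and on both TPM scales (0.0917 and 0.0918, limma-trend). Egr1 and Egr3 passed under each single sample left out. With the replicate number as a block they did not pass (adjusted p = 0.135 and 0.179, edgeR), with slopes of 0.26 and 0.08. Negative 5, 6 and 7 have no positive sample of the same number, so they do not inform a slope under this block. The loss of these calls therefore cannot tell pairing from fewer informative samples.

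Members short of the threshold included Ier2, a short-lived regulator of transcription, with 29.0, 43.8 and 53.5 CPM in the negative group and 37.6, 29.8, 32.3 and 29.2 CPM in the positive samples, and a slope of 0.09 ± 0.03 (SE, adjusted p = 0.0598, edgeR). Its groups overlapped, with negative 6 the highest. Ier2 passed by DESeq2 (adjusted p = 0.0271), without positive 4 (0.00836, edgeR) and in the 7 negative samples alone (0.0206, edgeR). Jun and Btg2 passed without positive 4 and in the negative samples alone, and Btg2 also by DESeq2 and without positive 1. Bag3 passed without positive 2. The slope of Fos was 0.29 ± 0.14 (adjusted p = 0.176) and that of Fosb 0.38 ± 0.17 (adjusted p = 0.156), so the widely spread pair had larger estimates than Egr3 but also larger errors. In all, 16 of 19 immediate early and 7 of 12 heat shock slopes were above 0, against 48.6% of all genes, and the medians were 0.06, 0.01 and -0.0018. Among genes named from lists outside the members, Dusp2 (0.66 ± 0.06, adjusted p = 6.38e-06) and Rnd3 (0.18 ± 0.02, adjusted p = 6.44e-05) led 43 other early response genes, of which 7 rose and 0 fell, against 7.57% and 4.28% of all genes. Of 51 other chaperone genes 5 rose and 3 fell, against the same shares, with Hspa14 (0.18 ± 0.02) and Hspa2 (0.25 ± 0.04) the clearest. Chac1, a target of the unfolded protein response, rose 0.73 ± 0.05 (adjusted p = 2.41e-07), and Trib3 fell by 0.15 ± 0.04 (adjusted p = 0.02, and 0.496 without negative 7), the only 2 of the 24 genes of that list to pass. Of 20 genes of p53 and cell stress 3 rose and 0 fell, led by Gclc (0.25 ± 0.02, adjusted p = 2.7e-05) and Txnrd1 (0.11, adjusted p = 0.00045).

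**Figure D3:**
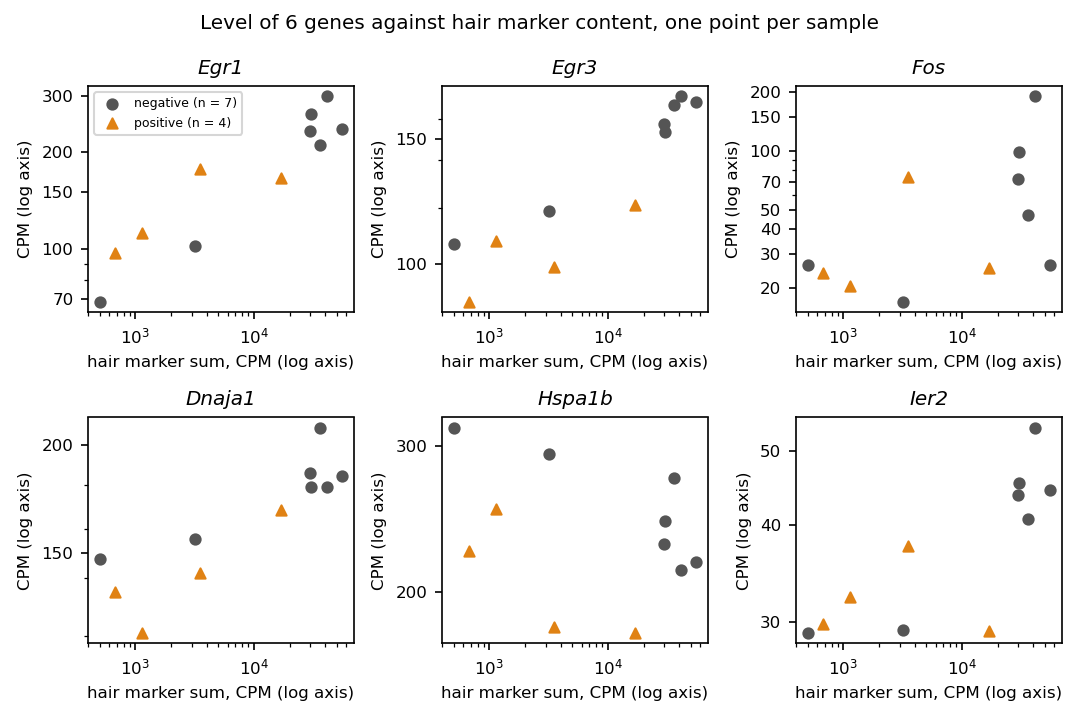
CPM of 6 members (Egr1, Egr3, Fos, Dnaja1, Hspa1b and Ier2) against the summed CPM of the 35 hair markers, both on log axes, 1 point per sample, with dark circles for the negative and orange triangles for the positive group. Egr1 and Egr3 are higher in samples with more hair transcripts, and Hspa1b is highest in negative 7, at 315 CPM, the sample with the smallest hair sum (504 CPM).

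Positive against negative samples, the comparison the design gives, made no call among members or among all genes. No gene of 14588 (0%) had an adjusted p under 0.05 by edgeR, while 2448 (16.8%) had an unadjusted p under 0.05. By limma-voom 0 genes passed, and DESeq2 called 68, of which Hspa1a (adjusted p = 0.0481) was the only member. At an unadjusted p under 0.05, 10 of the 31 members stood out, 9 lower and 1 higher in the positive group, where 9.73% of all genes were lower and 7.05% higher. Estimates were below 0 for 14 of 19 immediate early genes and 10 of 12 heat shock genes, and for 51.4% of all genes. The median log2 fold changes were -0.23, -0.24 and -0.0071.

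Among the heat shock genes, Dnajb1 (chr8:83608175-83612653), the Hsp40 partner of Hsp70, had 73.7, 85.6 and 93.8 CPM in the negative group and 69.4, 64.4, 69.3 and 72.1 CPM in the positive samples. In CPM, every positive sample was below every negative one, which held for 1.06% of tested genes and for this member alone. No member had every positive sample above every negative one in CPM, as 0.61% of genes did. The difference was -0.31 ± 0.08 (SE, log2, adjusted p = 0.248, edgeR). Hspa1a had 86.0, 107 and 113 CPM in the negative group and 66.4, 75.1, 90.8 and 60.1 CPM in the positive samples. Only positive 3 reached the negative range, and the difference was -0.48 ± 0.12 (SE, log2, adjusted p = 0.248, edgeR). Hspb1 had 137, 185 and 283 CPM in the negative group and 129, 124, 140 and 114 CPM in the positive samples. Again positive 3 alone reached the negative range, by passing negative 7, and the estimate was -0.58 ± 0.18 (SE, adjusted p = 0.248). Dnaja1, with the values given for it beside hair content, had -0.32 ± 0.11 (SE, adjusted p = 0.248), and Hspa1b -0.29 ± 0.14 (SE, adjusted p = 0.309).
Hspa8, with 1186, 1328 and 1583 CPM in the negative group and 1292, 1187, 1092 and 1112 CPM in the positive samples, had -0.24 ± 0.10 (SE, adjusted p = 0.266), with overlap. Hsp90aa1, the inducible Hsp90, had 237, 297 and 326 CPM in the negative group and 325, 243, 189 and 308 CPM in the positive samples. Positive 1 and positive 4 were near the top of the negative range and positive 3 was the lowest of all 11, so the estimate of -0.13 ± 0.15 (SE, adjusted p = 0.66) was within its error.

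The immediate early gene with the smallest p was Egr3, at -0.52 ± 0.14 (SE, log2, adjusted p = 0.248, edgeR). Jund, an AP-1 member, had 96.7, 114 and 147 CPM in the negative group and 78.9, 87.6, 111 and 83.5 CPM in the positive samples. Only positive 3 reached the negative range, and the estimate was -0.40 ± 0.13 (SE, adjusted p = 0.248). Jun, the main AP-1 partner of Fos, had 108, 136 and 168 CPM in the negative group and 116, 103, 116 and 101 CPM in the positive samples, with overlap and an estimate of -0.36 ± 0.13 (SE, adjusted p = 0.251). Klf6, a zinc finger factor, went the other way, with 163, 187 and 208 CPM in the negative group and 248, 215, 203 and 219 CPM in the positive samples. Positive 3 lay below the highest negative sample, negative 2, and the estimate was 0.25 ± 0.09 (SE, adjusted p = 0.25). In TPM, the lowest positive sample of Klf6 (81.37) lay barely above the highest negative one (81.29). The share of all genes without overlap was computed for CPM only. The variable genes had large errors: Fos had -0.93 ± 0.64, Fosb -0.99 ± 0.79, Egr1 -0.54 ± 0.36 and Atf3 -0.10 ± 0.46 (SE, adjusted p of 0.456, 0.521, 0.438 and 0.934).

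Mean hair content was lower in the positive group, with a hair sum of 28137 ± 19910 CPM (SD, n = 7) in negative and 5535 ± 7608 CPM (SD, n = 4) in positive samples. All positive samples (671 to 16791 CPM) lay within the negative range (504 to 55330 CPM), and this difference was not tested. With the hair sum as a covariate, the median difference of the immediate early genes was 0.02, with 9 of 19 below 0, and that of the heat shock genes was -0.19, with 9 of 12 below 0. Under the same covariate Egr1 stood at 0.25, Egr3 at -0.26 and Fos at -0.06, while Hspa1a was at -0.53 and Hspa1b was at -0.48 (adjusted p = 0.633, edgeR). Without positive 1, the sample with the highest neutrophil and macrophage sums, the medians were -0.34 for the immediate early and -0.27 for the heat shock genes, with 17 of 19 and 11 of 12 below 0. Positive 1 was singled out after the values were seen. Leaving out each sample in turn gave medians of -0.34 to -0.16 for the immediate early and -0.28 to -0.18 for the heat shock genes. Of the other lists, none had a gene past the threshold in this comparison by edgeR. The named ones were Ier5 (-0.30) and Nr4a2 (0.82) of the early response, Fkbp4 (-0.34) and Hspbp1 (-0.48) of the chaperones, Creld2 (-0.40) and Eif2ak3 (0.22) of the unfolded protein response, and Ccng1 (0.30) and Txnrd1 (-0.39) of the stress list.

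**Figure D4:**
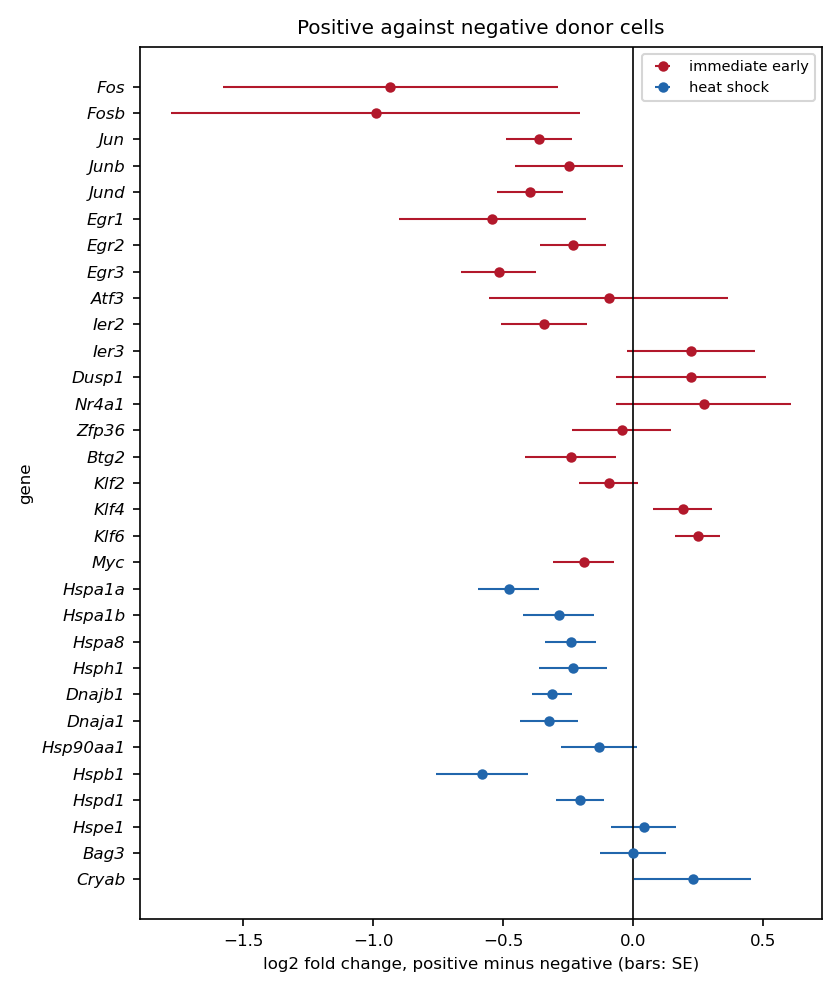
Log2 fold change of each member, positive minus negative, with bars of 1 SE; immediate early genes are red and heat shock genes blue. Most points lie left of 0, the longest bars belong to Fos and Fosb, and no member passed after adjustment.

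The slope on the log2 summed level of the 24 muscle markers was significant for 112 genes of 14588 (0.768%), all higher, and among the members for Cryab alone. The 24 markers that make up the sum were among the genes tested. Cryab (chr9:50745951-50756636) had 58.9, 87.3 and 141 CPM in the negative group and 123, 82.8, 121 and 92.0 CPM in the positive samples. Negative 7, the sample with the most muscle transcripts, was its highest, and the groups overlapped. It rose 0.68 ± 0.12 (SE) on the log2 scale per doubling of the muscle sum (edgeR, adjusted p = 0.0228), and its difference between groups was 0.23 ± 0.22 (SE, adjusted p = 0.611). The call was lost without any of negative 2 (adjusted p = 0.107), negative 7 (0.649), positive 2 (0.0604) or positive 3 (0.0522), and without negative 7 the genes called fell to 9. At an unadjusted p under 0.05 (6.14% of all genes, 4.39% higher and 1.74% lower), 3 members had a positive slope and 0 a negative one, and slopes were above 0 for 7 of 12 heat shock and 4 of 19 immediate early genes, against 49% of all genes. Bag3, the co-chaperone that works with Hspb proteins in muscle, had a slope of 0.29 ± 0.10 (SE, adjusted p = 0.627) and Klf4 0.27 ± 0.09 (SE, adjusted p = 0.497). Outside the members, the muscle small heat shock protein Hspb7 rose 1.60 ± 0.24 (adjusted p = 0.0098), 1 of 51 other chaperone genes, and Hspb6 had 0.78 ± 0.22 (adjusted p = 0.324). Hspb7 lost its call without negative 2 or without negative 7, and Hspb6 passed without positive 2 (adjusted p = 0.0359, edgeR). The other named genes did not pass by edgeR: Gadd45g (0.66), Ctgf (0.28), Trib3 (0.54), Asns (0.17), Phlda3 (0.29) and Gclm (-0.39).

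A slope on the inducible Hsp70 pair asked which other members moved with it within the groups. The summed level of Hspa1a and Hspa1b ran from 239 CPM in positive 4 to 410 CPM in negative 7, less than a doubling, so that slopes per doubling reach beyond the data. No gene of 14586 passed (0%) for a slope on this sum by edgeR, while 3366 (23.1%) had an unadjusted p under 0.05; limma-voom called 0 genes, and DESeq2 called 943, of which 3 were members. At an unadjusted p under 0.05, 11 of 29 members had a negative and 2 a positive slope, where 11.6% and 11.5% of all genes did. Slopes were below 0 for 23 and above 0 for 6 of the 29 members, against 49.9% and 50.1% of all genes. The negative slopes included Junb (-1.45 ± 0.37, adjusted p = 0.0914), Egr1 (-2.42 ± 0.68, adjusted p = 0.101) and Fos (-4.04 ± 1.31, adjusted p = 0.116), and among the chaperones Hsp90aa1 (-1.04 ± 0.26, adjusted p = 0.0904). The positive ones were Bag3 (0.71 ± 0.26) and Cryab (1.26 ± 0.50), with adjusted p of 0.144 and 0.167. Of the other lists no gene passed by edgeR, and the named ones were Dusp6 (-2.36) and Plk2 (-1.90), Hspa14 (-1.77) and Fkbp5 (1.498), Herpud1 (0.68) and Chac1 (-5.17), and Mt2 (-1.38) and Gclc (-2.22). Of these 8, DESeq2 called 6, all but Herpud1 and Chac1. With hair as a further covariate, 1071 genes and 3 of 29 members had an unadjusted p under 0.05 for this slope, and Egr1 was at -0.45 (adjusted p = 0.859), Hspa14 at -0.44 and Gclc at -0.12, while Junb was at -1.57 (adjusted p = 0.665). Without negative 5, 967 genes passed for this slope, among them 2 members, Dnaja1 and Hsp90aa1.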

How the data were processed

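Total RNA of 11 flash-frozen back skin samples was sequenced after ribosomal RNA depletion, per the labels' protocols. Per the submitters' processing notes, reads were handled with bcl2fastq, Trim Galore and RSEM, on GRCm38. Tool versions, aligner and strandedness were not given in the sources used here. As values per gene and sample, the authors deposited RSEM expected counts and TPM, and both were used as deposited. Estimated counts were rounded to whole numbers (7.93% to 8.52% of values per sample were not whole). No pair of samples agreed within sampling noise (smallest chi-square per degree of freedom 3.52). Genes were filtered with edgeR's filterByExpr by group (minimum count 10, minimum total 15), and libraries were scaled by TMM. The comparison of the groups and the slopes were fitted on all 14588 genes with edgeR 4.0.16 (glmQLFit in legacy mode, glmQLFTest) in R 4.3.3, with Benjamini-Hochberg adjustment over all genes tested at 0.05. Slopes were fitted within groups, on the log2 summed CPM of hair markers, muscle markers or Hspa1a and Hspa1b, or on the log2 CPM of Fos. Fos, or Hspa1a and Hspa1b, stayed in the adjustment of their own slope and were left out of its counts. The fits were tested on simulated data. There the comparison of the groups recovered 30.3% of 1.5-fold, 76.1% of 2-fold and 95.4% of 4-fold changes, with 9 false calls among 142. Small differences between groups could therefore be missed. The slopes recovered 62.1% to 77.3% of changes of 1.5-fold per SD of the covariate.

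The members and lists were chosen with earlier results of these data known. Values by sample (each positive sample, and the lowest, median and highest of the negative samples) are given for 9 members chosen by name, for those past the threshold in any fit, and for the 3 of each class with the smallest p in the comparison of the groups and in the hair slope; of each of 4 other lists, the 2 genes with the smallest p per fit were set to be named. Alternatives were RLE factors, scaling without hair markers, other filters, limma-voom 3.58.1, edgeR's version 4 mode, DESeq2 1.42.0, limma-trend on log2(TPM + 1) and log2(TPM + 0.1), the replicate block, added covariates, a mean z-score of the markers, the negative samples alone, and leaving out samples. Promoter sequences and gene positions are from RefSeq (GRCm38.p6). Exons beside the printed stretches and the transcripts of Hspa1a and Hspa1b are from GENCODE vM21 (GRCm38).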

Additional observations from a re-analysis of the deposited data

Results flagged for a closer look

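A sample was marked where its gap to the nearest other sample of its group exceeded Dixon's 95% critical value for that group size. Of 62 sets examined (31 members in 2 groups) 9 were marked. Chance marks about 1 in 20, or 3.1 of 62, where sets are independent and values normally distributed. The members were read in the same samples, so the sets are not independent and 9 against 3.1 is no test of chance. In the positive group the marked sample was positive 1 each time. Fos had 73.78 CPM there against 20.55 to 25.53 in the other positive samples, Junb 189.9 against 94.83 to 105.6, and Ier3 87.98 against 33.19 to 41.52. Zfp36 had 128.5 CPM against 74.01 to 78.4, and Btg2 142.3 against 99 to 101.4. Positive 1 also had the highest summed neutrophil (752 CPM) and macrophage (3085 CPM) markers, whose part was not tested.

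In the negative group, Fosb was high in negative 6, with 57.71 CPM against 2.574 to 24.86. Negative 7, the sample with the fewest hair and the most muscle transcripts, was low for Egr2 (82.84 CPM against 116.1 to 134.3) and high for Klf2 (16.09 against 10.91 to 13.12) and Klf4 (360.7 against 239.7 to 286.8). None of the 9 was a heat shock gene.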

How the results depend on the processing

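Of 2372 values of 100 named results (genes and the medians of both classes) under the alternatives, 2337 kept their direction, 32 lost the threshold, 45 gained it and 35 in 18 results changed sign. Of the counts, DESeq2 called 68 genes and 1 member between groups, 11 genes and 3 members for the Fos slope, and 943 genes and 3 members for the Hspa1 slope. For the Hspa1 slope, limma-trend on log2(TPM + 1) called 949 genes and 1 member, on log2(TPM + 0.1) 853 genes, and scaling without hair markers 3 genes. Deviations of same-numbered samples of the 2 groups correlated at -0.0406, -0.141, -0.0536 and 0.342. Differences in hair content enter these values, so they cannot decide whether the numbers pair samples. With the replicate block, under which negative 5, 6 and 7 have no partner and do not inform a slope, the hair slope called 366 genes and 0 members. The muscle and the Fos slope called 0 genes and 0 members with it. The Hspa1 slope called 639 genes with the block, and the heat shock median between groups was -0.13. Without the 2 samples farthest from the median of the covariate, the hair slope called 2 members, and the muscle and Fos slopes 0 genes and 0 members. In the 7 negative samples alone, the muscle slope called 59 genes and 0 members. With hair as a further covariate, the Fos slope called 2 genes, both members. Leaving out 1 sample gave 0 to 3 genes between groups (3 without negative 7, 1 without negative 4) and 0 members, and 1176 to 1950 genes and 2 to 6 members for the hair slope. It gave 9 to 119 genes and 0 to 1 members for the muscle slope (62 without negative 2), 0 to 1 genes and 0 to 1 members for the Fos slope, and 0 to 967 genes and 0 to 2 members for the Hspa1 slope (967 without negative 5). The cause was not tested.

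These signs changed. Between groups, leaving out 1 sample put Atf3 at -0.86 to 0.19 (above 0 without negative 4, negative 6, positive 2, positive 3 or positive 4) and Hsp90aa1 at -0.24 to 0.013 (above 0 without positive 3). With the hair covariate, Egr1 was at 0.25, Atf3 at 0.12, Hsp90aa1 at 0.039, Fosb at 0.15 and the immediate early median at 0.022. For the hair slope, Hspa8 was at -0.013 on both TPM scales and -0.0045 to 0.017 with 1 sample left out (below 0 without negative 1, 5 or 6 or positive 2 or 3), Jund at -0.015 with the block, Klf6 at -0.0077 to 0.027 with 1 sample left out (below 0 without negative 7) and -0.018 without the farthest 2, and Hspa1a at 0.0047 in negative samples alone. For the muscle slope, the block gave Myc -0.60, Klf6 0.16, Egr2 0.095, Asns -0.25 and Phlda3 -0.10. Leaving out 1 sample put Klf2 at -0.0037 to 0.25, Egr2 at -0.29 to 0.028 and Trib3 at -0.056 to 0.63, each turned only without negative 7, and without the farthest 2 Klf2 at -0.11, Egr2 at 0.018, Trib3 at -0.16 and Gclm at 0.11. Chac1 was at 0.53 for the Hspa1 slope with hair as a further covariate. Among the members with few counts were Fosb, Atf3 and Klf2 (20 to 484, 27 to 164 and 80 to 121 per sample).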
